A study of Mus musculus with 2 samples.

Results

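The transcripts described here are those of the 4 Hox gene clusters of the mouse, found in a list of RNAs from embryonic stem cells. They were chosen by position: every transcript, on either strand, that overlaps a window of mm9 around HoxA to Evx1 (chr6:52100000-52270000), HoxB (chr11:96050000-96235000), HoxC (chr15:102745000-102875000) or HoxD (chr2:74480000-74620000). The rule used no measured value and chose 109 of the 110003 transcripts of the list, which merge into 59 of its 79052 loci. A locus is the set of transcripts of 1 strand whose spans overlap. RNA came from V6.5 embryonic stem cells, a pluripotent line kept on irradiated fibroblasts as feeder cells, and was made into 1 library of polyadenylated RNA and 1 library of total RNA without ribosomal RNA, both strand-specific. The list does not say which library, if either, gave a transcript and holds no read count, so no level, no depth and no comparison of the 2 libraries can be given. Feeder cells also express Hox genes, and the list cannot tell feeder RNA from stem cell RNA. It could not be used to check the cell label either, since none of 5 pluripotency and 6 fibroblast marker genes that could be looked up was found in it. Loci are features of 1 list and not replicates, and the intervals below cover counting error only.

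Hox genes encode homeodomain transcription factors that give cells their position along the head-to-tail axis. In mammals they lie in 4 clusters, and within each cluster all Hox genes are read from the same strand, in an order that follows where and when they act in the embryo. In pluripotent cells the clusters are known to be held largely silent by Polycomb complexes. Noncoding RNAs are read from between and across the coding genes, often from the other strand. The best known are HOTAIR, HOTTIP and HOTAIRM1, whose roles in the control of Hox genes were described mainly in human cells.

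By exon and intron lengths, noncoding genes of the clusters were named among the transcripts and coding Hox genes were not. The list itself names no gene. A gene was named when an internal exon and the introns on both its sides had the lengths of those of a single annotated gene on the same chromosome and strand, which needs at least 3 exons (GENCODE M21, GRCm38). By this rule 9 genes were named, all noncoding: Hotairm1, Hoxaas2, Hoxaas3, Hoxa11os and Evx1os in the HoxA window, Hoxb5os and Gm11536 in HoxB, and Hoxd3os1 and Haglr in HoxD. They are 9 of 13 noncoding genes of the clusters that could be named this way. Over the whole annotation 62.8% of such genes were named, so the clusters lie near that background. Of the 17 coding Hox and Evx genes that could be named this way, 0 were, and over the whole annotation 1.73% of coding genes were, so that few coding genes of any kind were named in this list.

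Where a single intron length shared with an annotated gene of the same cluster and strand was enough, 16 genes were named, including the same 9. This setting added Gm15050 and Hottip in HoxA, Hoxb3os in HoxB, Hotair in HoxC, and Gm14396, Gm14424 and Gm14426 in HoxD, and again 0 of 41 coding genes. The 16 are 16 of 21 spliced noncoding genes annotated in the clusters, and they account for 46 of the 109 transcripts. No share over the whole annotation was computed for this setting, which looks up genes within the clusters alone. The spliced noncoding genes that were not named are Gm29430, Gm11535, Gm53, Gm28309 and Gm28793. The 7 microRNA genes of the clusters have a single short exon and cannot be named by either rule. Of the 16 genes, 12 are read from the strand opposite to the Hox genes, as are 14 of the 21 annotated spliced noncoding genes. In the annotation 11 overlap a Hox or Evx gene of the other strand, and 5 start within 2000 bp of such a gene, head to head. Of the spliced noncoding genes not named, Gm29430 alone also overlaps such a gene. Gm28793 alone starts head to head with one within that distance, at 141 bp. As a check, the difference between annotated and listed positions was the same for every named transcript within HoxB, HoxC and HoxD, and within HoxA it took 2 values that differ by 5 bp.

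**Figure D1:**
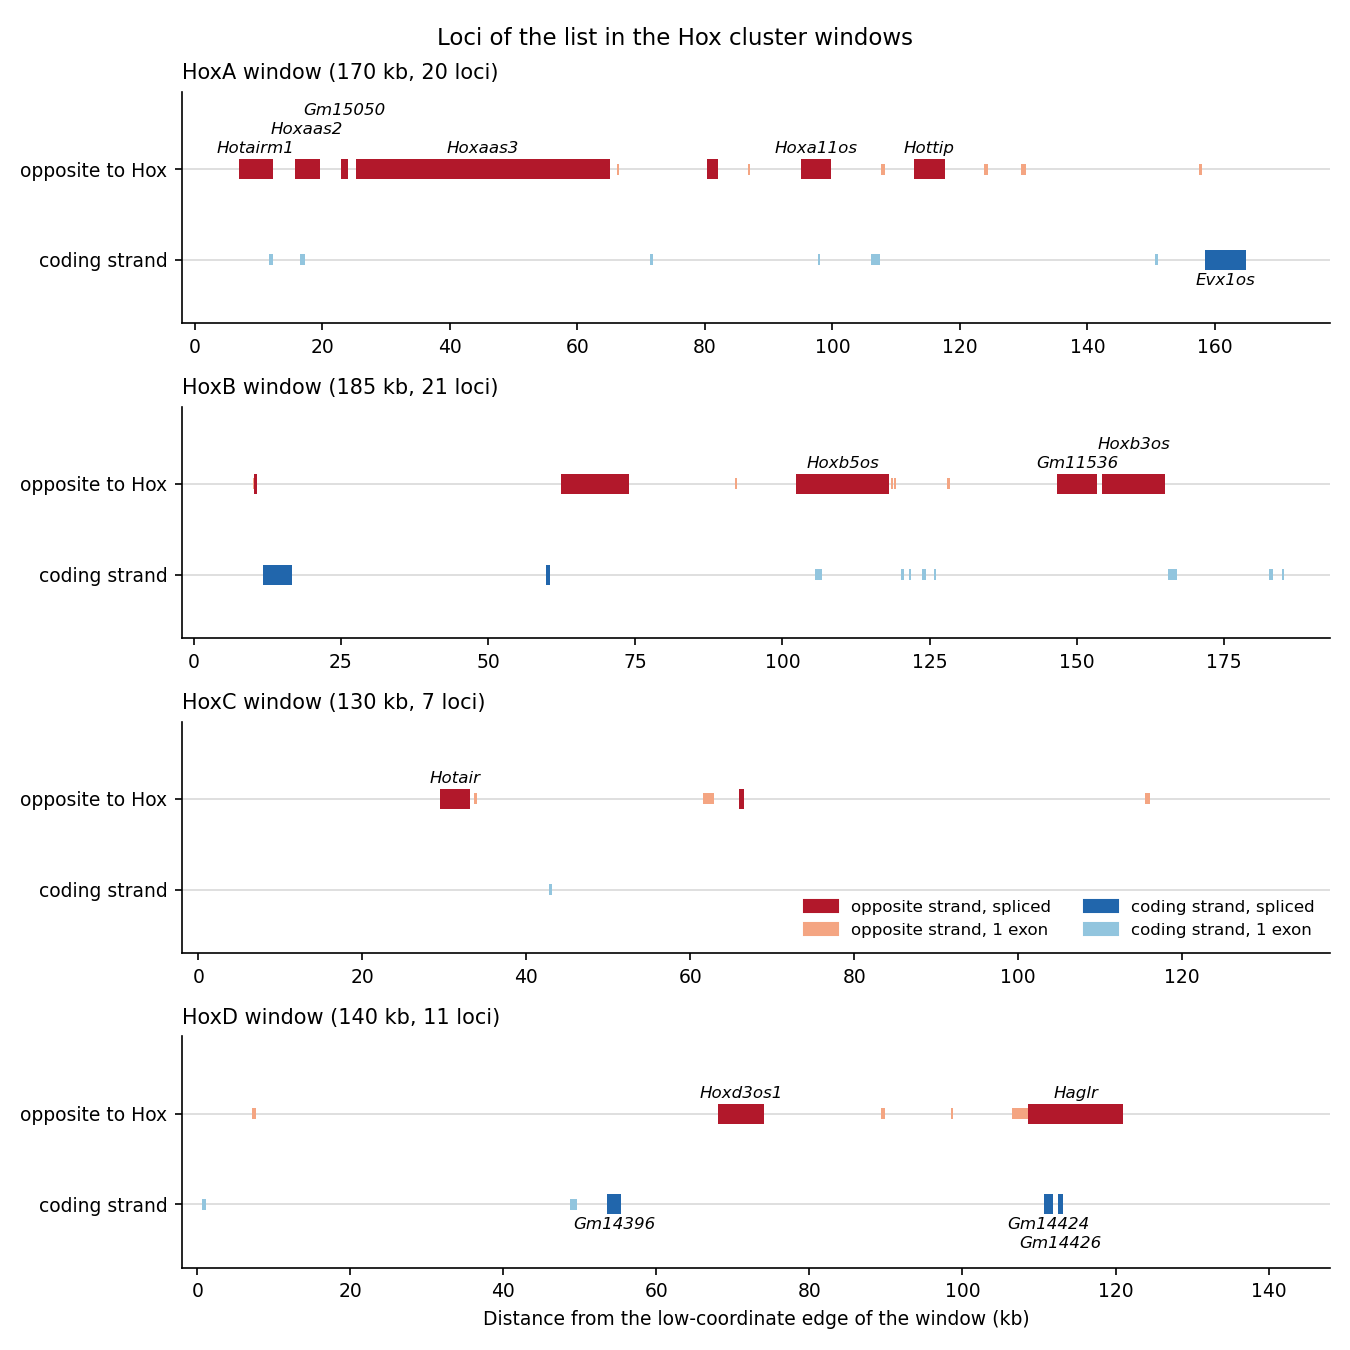
Map of the 59 loci in the 4 windows, with the distance from the low-coordinate edge of each window in kb on the x axis and the strand, relative to the Hox genes, on the y axis. Tall dark boxes are spliced loci and short pale boxes loci with 1 exon. Labels give the spliced loci named by intron lengths. Those of HoxA and HoxB lie mainly on the opposite strand, while Evx1os, Gm14396, Gm14424 and Gm14426 lie on the coding strand.

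The clusters were rich in loci, and HoxA and HoxB richer than HoxC and HoxD. HoxA held 49 transcripts in 20 loci, HoxB 37 in 21, HoxC 9 in 7 and HoxD 14 in 11. Per 100 kb this was 11.8 loci in HoxA, 11.4 in HoxB, 5.39 in HoxC and 7.86 in HoxD. The rest of the same chromosomes held 3.0, 3.84, 3.03 and 3.11 loci per 100 kb, so the windows exceeded their chromosomes 3.92-fold, 2.96-fold, 1.78-fold and 2.52-fold. These ratios describe the list and were not tested. Chromosome averages include long stretches without genes, whose part in the ratios was not tested.

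**Figure D2:**
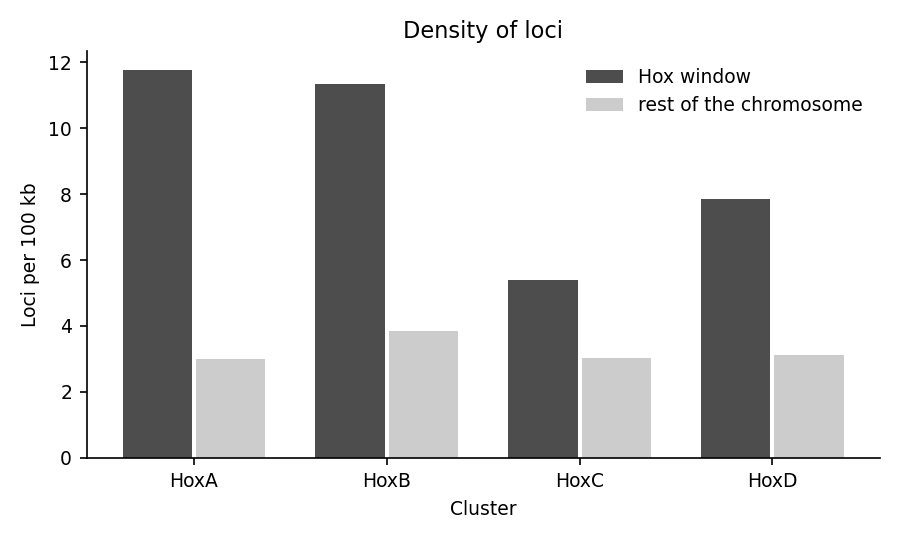
Loci per 100 kb (y axis) in each Hox window (dark bars) and in the rest of the same chromosome (pale bars). The window bar is the higher one for all 4 clusters, from 5.39 in HoxC to 11.8 in HoxA, against 3.0 to 3.84 outside.

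Transcripts opposite to the Hox genes were present in every cluster. The Hox genes of HoxA are on the minus strand of the genome, and those of HoxB, HoxC and HoxD on the plus strand. Loci on the other strand made up 13 of 20 in HoxA (65.0%, Clopper-Pearson 95% interval 40.8 to 84.6%), 10 of 21 in HoxB (47.6%, 25.7 to 70.2%), 6 of 7 in HoxC (85.7%, 42.1 to 99.6%) and 6 of 11 in HoxD (54.5%, 23.4 to 83.3%). The shares did not differ beyond counting error between the clusters (two-sided exact test of the 2 by 4 table, p = 0.350, adjusted p = 0.699 over 2 tests). Counted as transcripts, 37 of 49 in HoxA, 21 of 37 in HoxB, 8 of 9 in HoxC and 8 of 14 in HoxD were opposite, but transcripts of 1 locus share exons and were not tested.

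Shares of spliced loci did not differ beyond counting error between the clusters. More than 1 exon was present in 8 of 20 loci in HoxA (40.0%, 19.1 to 63.9%), 7 of 21 in HoxB (33.3%, 14.6 to 57.0%), 2 of 7 in HoxC (28.6%, 3.67 to 71.0%) and 5 of 11 in HoxD (45.5%, 16.7 to 76.6%). The exact test gave p = 0.874 (adjusted p = 0.874). In all 4 windows 22 of 59 loci were spliced (37.3%, 25 to 50.8%), beside 20.2% of all loci of the list. Of the transcripts, 58 of 109 were spliced (53.2%), beside 29.9% of the list. By strand, 16 of 35 opposite loci were spliced (45.7%, 28.8 to 63.3%) and 6 of 24 on the coding strand (25%, 9.77 to 46.7%), with intervals that overlap. Of the 22 spliced loci 16 hold a named gene, and the other 6 are described at the end.

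**Figure D3:**
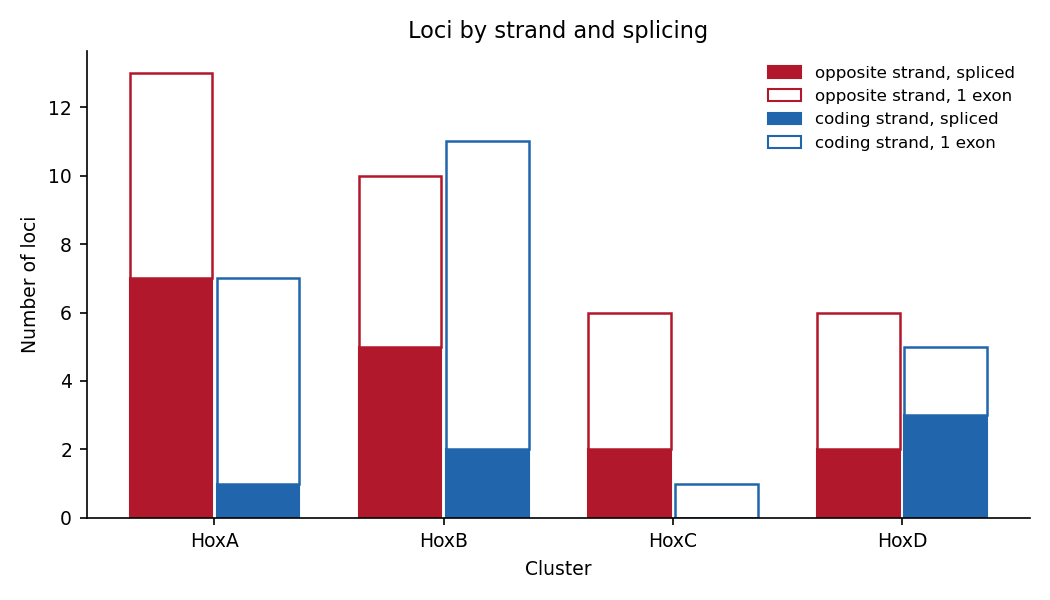
Number of loci (y axis) in each cluster on the strand opposite to the Hox genes (red) and on the coding strand (blue), with spliced loci filled and loci with 1 exon open. HoxA has 7 spliced opposite loci and 1 spliced locus on the coding strand, and HoxD has 2 and 3.

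Hotairm1 was present as transcripts with different introns. In human cells its homolog is known from myeloid differentiation. In the list it lay at chr6:52106901-52112282 (mm9) on the plus strand. A U transcript had exons of 81, 89 and 531 nt, with introns of 907 and 311 bp. Its introns and 5′ end were those of annotated Hotairm1-201, and its 3′ end went 292 nt beyond. A BROAD and a WHITEHEAD transcript of 518 and 299 nt shared an intron of 3244 bp, that of another annotated Hotairm1 transcript, and their 5′ ends lay 2 and 10 nt beyond the annotated one. No intron of the U transcript was in the BROAD or WHITEHEAD transcript. On the coding strand an unspliced U transcript of 686 nt overlapped the 3′ part of the locus.

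Next along the cluster came Hoxaas2, which overlaps Hoxa3 and starts 843 bp from Hoxa2, head to head with it in the annotation. Its FT transcript had exons of 314, 180 and 1073 nt and was identical at both ends to the annotated 1567 nt RNA. The U transcript was 1690 nt long, and its upstream intron was 1725 bp in place of 1723 bp. The same locus held an unspliced FT transcript of 2926 nt. An unspliced U transcript of 814 nt within the locus (chr6:52116517-52117330, mm9) had an FT transcript of exactly the same span on the other strand. Such mirrored spans were present for 48 transcripts in the whole list (0.0436%) and for 2 of the 109 here.

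The internal exons that gave these and other members their names are printed here, since their length together with both neighbouring introns identified the gene. Each exon is in capitals between 10 bases of the neighbouring exons, 5′ to 3′ on the RNA strand, from the GENCODE M21 transcript. The GRCm38 positions are chr6:52157890-52157978 for Hotairm1, chr6:52167711-52167890 for Hoxaas2, chr6:52312753-52312830 for Evx1os, chr11:96338993-96339085 for Gm11536 and chr2:74751529-74751642 for Haglr, and that of Hoxa11os is chr6:52246663-52246808. Hotairm1, Hoxaas2 and Hoxa11os are on the plus strand and the others on the minus strand.
Hotairm1 exon 2: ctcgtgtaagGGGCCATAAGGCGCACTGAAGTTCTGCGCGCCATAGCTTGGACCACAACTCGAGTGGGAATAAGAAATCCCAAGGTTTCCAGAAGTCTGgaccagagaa
Hoxaas2 exon 2: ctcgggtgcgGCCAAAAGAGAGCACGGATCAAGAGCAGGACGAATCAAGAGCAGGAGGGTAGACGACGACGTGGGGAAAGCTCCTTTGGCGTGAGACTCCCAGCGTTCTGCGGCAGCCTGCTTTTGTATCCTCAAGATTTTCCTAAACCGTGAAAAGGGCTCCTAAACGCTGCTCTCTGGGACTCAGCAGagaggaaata
Hoxa11os exon 4: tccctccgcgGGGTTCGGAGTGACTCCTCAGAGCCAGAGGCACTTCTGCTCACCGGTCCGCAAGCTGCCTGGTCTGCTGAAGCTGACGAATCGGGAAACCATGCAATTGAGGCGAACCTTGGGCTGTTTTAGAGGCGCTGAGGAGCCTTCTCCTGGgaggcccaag
Evx1os exon 3: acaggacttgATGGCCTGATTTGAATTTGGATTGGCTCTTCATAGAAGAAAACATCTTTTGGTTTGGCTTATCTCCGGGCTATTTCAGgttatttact
Gm11536 exon 2: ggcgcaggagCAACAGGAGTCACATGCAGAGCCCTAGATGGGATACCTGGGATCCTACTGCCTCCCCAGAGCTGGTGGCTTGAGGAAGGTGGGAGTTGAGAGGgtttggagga
Haglr exon 2: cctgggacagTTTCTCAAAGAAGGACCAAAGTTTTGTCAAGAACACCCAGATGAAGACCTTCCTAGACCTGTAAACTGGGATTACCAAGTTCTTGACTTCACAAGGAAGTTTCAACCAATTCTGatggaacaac
All 6 exons had the same length in the list and in the annotation: 89 nt in Hotairm1, 180 nt in Hoxaas2, 146 nt in Hoxa11os, 78 nt in Evx1os, 93 nt in Gm11536 and 114 nt in Haglr. GC content ranged from 39.7% in the Evx1os exon to 58.9% in the Hoxa11os exon.

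Hoxa11os had the most splice forms. It is read opposite to Hoxa11, a gene needed for limb and uterus development. At chr6:52195081-52199797 (mm9) the locus held 8 transcripts, of which 6 were named, with 2 to 5 exons and 576 to 1868 nt. The longest, a U transcript, had exons of 574, 216, 217, 146 and 715 nt, the introns and 5′ end of Hoxa11os-201, and a 3′ end 29 nt beyond. All 8 transcripts, 5 U, 2 BROAD and 1 WHITEHEAD, were joined to 1 last exon, with an intron end at position 52199082 (mm9). The 4 introns that end there were 2883, 2275, 549 and 109 bp long, and that of 2275 bp was present in 5 transcripts. In the annotation the nearest starts of Hoxa11os and Hoxa11 are head to head, 159 bp apart.

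Hottip, whose human homolog is known to keep the HOXA genes at that end of the cluster active, was present at chr6:52212769-52217597 (mm9) as 2 U transcripts of 2325 and 2346 nt. Both were identical to annotated transcripts at both ends. They used 2 intron starts, with introns of 2504 and 1950 bp, and the same intron end. The nearest annotated starts of Hottip and Hoxa13 are head to head, 1895 bp apart.

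Hoxaas3 formed the longest locus of the 4 windows and the one with the most transcripts. It spanned 39860 bp at chr6:52125216-52165075 (mm9), and in the annotation it runs opposite to Hoxa3, Hoxa4, Hoxa5, Hoxa6 and Hoxa7. It was named for 7 of the 9 transcripts of the locus, 3 U and 4 FT, of 575 to 2209 nt. Introns of 37090 and 17229 bp started at the same position, and those of 37090 and 11094 bp ended at the same exon of 102 nt. An 8th transcript, 3354 nt without introns, had the length of 5730596B20Rik, which is annotated as protein-coding and lies on the same strand. Between Hoxaas2 and Hoxaas3 lay Gm15050, whose intron of 627 bp was present in a U, an FT and a BROAD transcript of 552, 545 and 75 nt.

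The junctions where alternative exons meet a shared exon are printed here, because these joins tell the isoforms apart. Each line holds 20 bases on either side of the join, 5′ to 3′ on the RNA strand, from GENCODE M21. Capitals mark the 5 bases on either side of the join.
Hoxa11os-201 exon 4 to 5: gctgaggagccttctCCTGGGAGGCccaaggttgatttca
Hoxa11os-205 exon 1 to 2: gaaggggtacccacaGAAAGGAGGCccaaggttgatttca
Hottip-202 exon 1 to 2: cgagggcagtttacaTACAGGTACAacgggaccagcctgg
Hottip-201 exon 1 to 2: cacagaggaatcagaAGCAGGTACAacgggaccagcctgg
Hoxaas3-202 exon 1 to 2: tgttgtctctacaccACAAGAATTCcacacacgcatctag
Hoxaas3-201 exon 1 to 2: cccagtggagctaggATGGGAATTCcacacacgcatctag
Hoxb5os-202 exon 1 to 2: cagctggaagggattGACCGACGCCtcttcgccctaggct
Hoxb5os-201 exon 1 to 2: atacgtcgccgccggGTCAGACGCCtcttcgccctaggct
Hotair-201 exon 1 to 2: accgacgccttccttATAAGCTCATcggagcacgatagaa
In each of the 4 pairs the bases after the join are identical and those before it differ. Hotair is shown alone, with the single join that its U and FT transcripts share.

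Evx1os was found with the annotated structure in full. It lies beside Evx1, a homeobox gene of the primitive streak at the end of the HoxA cluster, and is on the strand of the Hox genes because Evx1 is read the other way. At chr6:52258383-52264826 (mm9) a U and an FT transcript had exons of 62, 267, 78 and 2509 nt, the same 2916 nt as Evx1os-201 at both ends. Another U transcript had exons of 202, 101 and 61 nt, as Evx1os-202 with 1 nt less at the 3′ end, and another FT transcript had exons of 202, 78 and 2484 nt. A BROAD transcript of 84 nt held the intron of 473 bp. That intron was present in 4 of the 5 transcripts. The nearest annotated starts of Evx1os and Evx1 lie 7 bp apart, with that of Evx1os inside Evx1.

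In HoxB the named RNAs were Hoxb5os, Gm11536 and Hoxb3os, all opposite to the Hox genes. Gm11536 is annotated across part of Hoxb3, 1163 bp from its nearest start. At chr11:96196742-96203422 (mm9) a single U transcript had exons of 152, 93 and 1161 nt with introns of 2871 and 2404 bp. Its 5′ end was the annotated one and its 3′ end went 871 nt beyond, so that it was 1406 nt long in place of 535 nt. Hoxb5os, at chr11:96152343-96168250 (mm9), overlaps Hoxb5 and Hoxb6 in the annotation. Its intron of 13182 bp was present in 2 U transcripts and 1 FT transcript, and a further U transcript of 158 nt with an intron of 11427 bp was identical to Hoxb5os-201 at both ends.

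Hoxb3os differed from its annotated form at both ends of its middle intron. At chr11:96204342-96214727 (mm9) all 3 U transcripts had 4 exons and an intron of 1404 bp, and a BROAD transcript had the same intron. In annotated Hoxb3os-202 it has 1403 bp. The exons on either side of it had 95 and 63 nt in the 3 U transcripts, and have 100 and 59 nt in Hoxb3os-202. In 1 U transcript the introns on either side, of 4671 and 3601 bp, were those of Hoxb3os-202. The others had 4884 and 3601 bp, and 1620 and 128 bp, of which 3601 and 128 bp are annotated. The gene was thus named by single introns and not by a run of lengths. In the annotation Hoxb3os overlaps Hoxb2 and Hoxb3. Of all 57 distinct introns of the 4 windows, 19 were in transcripts of more than 1 name prefix, a share not computed for the whole list.

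HoxC, the cluster with the fewest loci, held 1 named RNA. Hotair was described in human cells as an RNA that guides Polycomb silencing of the HOXD cluster. At chr15:102774493-102778161 (mm9) a U and an FT transcript had exons of 236 and 1770 nt and an intron of 1663 bp, identical to annotated Hotair at both ends. In the annotation Hotair lies between Hoxc12 and Hoxc11 and starts 6697 bp from Hoxc11. With 1 intron, it could not be named by a run of lengths.

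In HoxD, Haglr and Hoxd3os1 were opposite to the Hox genes and 3 short RNAs lay on the coding strand. Haglr starts head to head with Hoxd1, 84 bp from it in the annotation. Its spliced U transcript, at chr2:74588634-74600953 (mm9), had exons of 118, 114 and 67 nt and introns of 11136 and 885 bp. The 5′ end was that of Haglr-202, and the 3′ end lay at -704 nt from the annotated one, with negative values inside it. A second, unspliced U transcript of 2085 nt had the length of Haglr-201, a match by length that was added after the data were seen. Gm14424, with 895 and 891 nt in a U and an FT transcript, and Gm14426, with 247 nt, lay within the span of Haglr on the other strand. Hoxd3os1 was present as 3 transcripts of 509 to 795 nt at chr2:74548101-74554055 (mm9), and Gm14396 as 1 transcript of 549 nt.

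A minority of named transcripts had exactly the ends of an annotated transcript. Of the 46 spliced transcripts of the 16 genes, 39 had the introns and exon number of 1 annotated transcript, and 13 of those had both ends to the base. These 13 were 8 U and 5 FT transcripts of 8 genes. No BROAD transcript of 3 and no WHITEHEAD transcript of 2 did. The 5′ end was identical in 27 of the 40 transcripts where the terminal intron allowed a comparison, and the 3′ end in 14 of 44. Among the 21 transcripts named by a run of lengths, 4 were identical at both ends (19%), beside 36.4% of the 8764 in the whole list, a difference that was not tested. The 21 transcripts come from 9 genes. By prefix, 1 of 13 U transcripts (7.69%) and 3 of 8 FT transcripts (37.5%) of the windows were identical at both ends. In the whole list this was 32.8% for U, 61.9% for FT and 0% for BROAD and WHITEHEAD names.

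**Figure D4:**
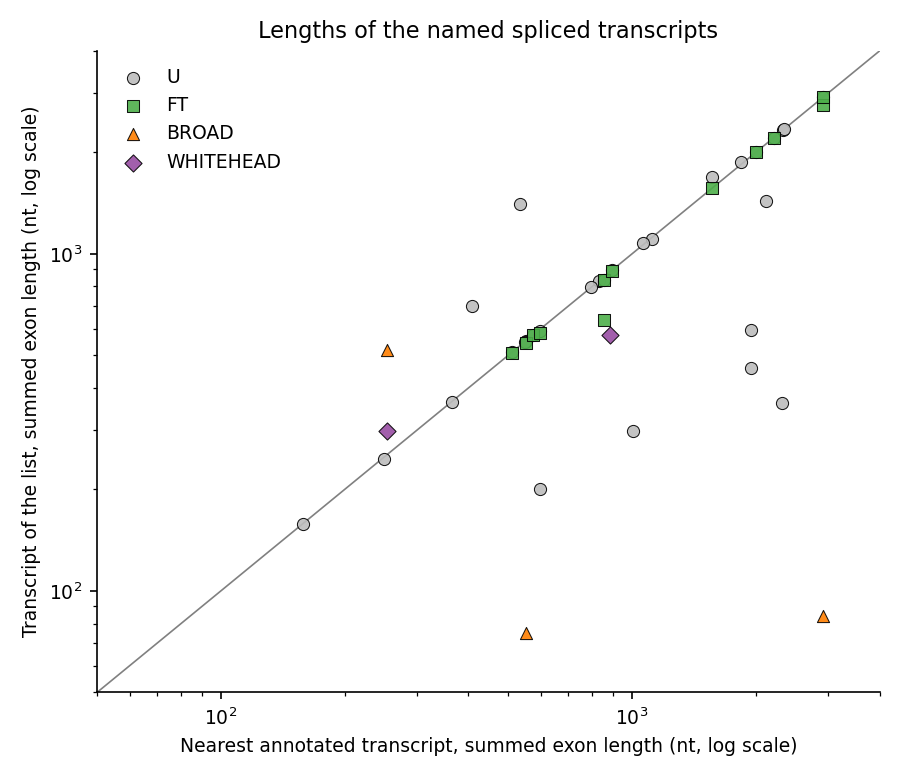
Summed exon length of each of the 46 named spliced transcripts (y axis, nt, log scale) against that of the nearest annotated transcript (x axis, nt, log scale), with the diagonal marking equality. Most U and FT points lie on or near the diagonal, while the 3 Hoxb3os transcripts lie below it. The Gm11536 and Hotairm1 U transcripts lie above it, at 1406 against 535 nt and 701 against 409 nt, and the BROAD transcripts of 84 and 75 nt lie far below.

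The prefixes of the transcript names were counted in each cluster. BROAD names were present in HoxA (6) and HoxB (5) and in neither HoxC nor HoxD, and both WHITEHEAD names were in HoxA, on Hotairm1 and Hoxa11os. U names made up 59.2% of transcripts in HoxA, 73.0% in HoxB, 77.8% in HoxC and 85.7% in HoxD, beside 79.2% of the whole list. FT names made up 24.5%, 13.5%, 22.2% and 14.3%, beside 10.7%. These shares rest on as few as 9 transcripts and were not tested. Every one of the 16 named genes had a U transcript, 8 had an FT, 3 a BROAD and 2 a WHITEHEAD transcript, and 6 had U transcripts alone. Structures were also compared between prefixes, which differ in their number of distinct introns. Of the spliced FT transcripts, 10 of 13 had all their introns in 1 U transcript (76.9%), beside 62.9% in the whole list. Of the 17 distinct introns in FT transcripts 16 were in a U transcript (94.1%), beside 81% in the whole list. The same 16 are 32% of the 50 distinct introns in U transcripts, a share not computed for the whole list. With 17 FT introns in all, that share could not have been much higher. Of the 9 introns in BROAD transcripts 3 were in a U transcript (33.3%), beside 20.4% in the whole list. Of the 2 in WHITEHEAD transcripts 1 was, beside 28.3% in the whole list.

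**Figure D5:**
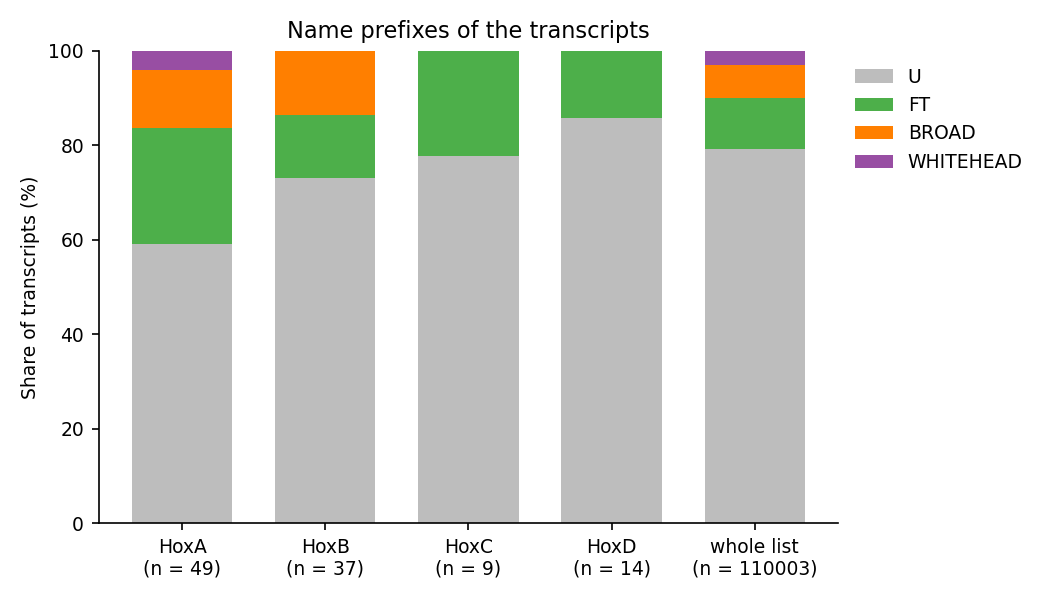
Share of transcripts (y axis, percent) by name prefix (colours) in each cluster and in the whole list, with the number of transcripts under each bar. BROAD names appear in HoxA, HoxB and the whole list and WHITEHEAD names in HoxA and the whole list, while HoxC and HoxD consist of U and FT names.

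The starts of 8 of the 18 genes named by any of the rules have a promoter window in RefSeq (GRCm38.p6, 250 bases before to 50 after the start). A pair is printed because a U transcript of each gene has its 5′ end at the annotated start and the windows differ in CpG content. The other U transcripts of Hoxa11os and Hottip start elsewhere. Capitals mark CG dinucleotides. The Hoxa11os window is chr6:52244993-52245292 and that of Hottip chr6:52262525-52262824 (GRCm38.p6, both plus strand).
Hoxa11os: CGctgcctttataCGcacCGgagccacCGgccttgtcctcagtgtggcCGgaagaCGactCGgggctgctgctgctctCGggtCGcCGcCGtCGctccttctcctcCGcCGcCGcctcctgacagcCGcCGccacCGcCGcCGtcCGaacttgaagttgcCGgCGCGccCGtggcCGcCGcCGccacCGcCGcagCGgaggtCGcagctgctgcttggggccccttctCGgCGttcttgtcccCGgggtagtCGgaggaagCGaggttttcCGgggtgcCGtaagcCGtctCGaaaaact
Hottip: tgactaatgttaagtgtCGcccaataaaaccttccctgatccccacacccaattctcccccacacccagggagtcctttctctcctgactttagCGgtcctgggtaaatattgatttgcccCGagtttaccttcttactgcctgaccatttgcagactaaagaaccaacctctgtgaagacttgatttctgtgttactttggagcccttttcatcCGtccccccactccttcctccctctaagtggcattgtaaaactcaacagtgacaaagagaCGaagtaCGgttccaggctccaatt
The Hoxa11os window held 41 CG dinucleotides and 70.3% GC, and 97.0% of the 32851 windows of this length had no more CG dinucleotides. It lies wholly within annotated Hoxa11 (chr6:52242106-52245810, GRCm38, minus strand), so these bases are also sequence of that coding gene. The Hottip window held 6 and 47.7% GC. The other windows of named genes held from 4 in Gm14424 to 25 in Gm15050, beside a median of 7 (quartiles 3 and 20) over all windows. The motif TATAAA, searched on both strands, was in the Hoxa11os and Gm15050 windows, and in 13.6% of all windows.

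Head-to-head loci were present mainly in HoxB, and overlapping loci mainly in HoxA and HoxD. A head-to-head partner, a locus on the other strand whose 5′ end lies up to 2000 bp away and faces outward, was present for 12 of 59 loci (20.3%), beside 5.16% of all loci. Of these 12, 10 were in HoxB and 2 in HoxA. The HoxB loci shared partners, so that they are not separate pairs. Loci at 1014 and 1648 bp had 1 partner in common, and those at 937, 1676 and 1967 bp another. Those at 603 and 1095 bp had the locus of Hoxb3os. The pair in HoxA, 279 bp apart, has on the coding strand an FT transcript of 1242 nt that matched 9530018H14Rik, annotated with 1243 nt, by its length. The locus of Hoxb3os had an unspliced partner 603 bp away, and that of Hoxb5os had one at 1967 bp. The 603 bp were measured from an unnamed, unspliced FT transcript of 3134 nt, and the named Hoxb3os transcripts started farther away. A locus of the other strand overlapped 11 of 59 loci (18.6%), beside 8.78% of all loci, with 6 of 20 in HoxA, 2 of 21 in HoxB and 3 of 11 in HoxD. Hotairm1, Hoxaas2, Hoxa11os, Hoxb5os and Haglr were each overlapped. These shares were not tested, and the windows are also denser in loci than the list as a whole.

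The remaining loci were mostly short and unspliced. Of 59 loci, 37 had 1 exon, with a median length of 480 nt (124 to 2085 nt), and 32 of them consisted of U names alone. They were split evenly by strand, 19 opposite and 18 on the coding strand. Those on the coding strand were placed on GRCm38 by the position differences of the named transcripts, taken as constant along each cluster. So placed, the loci at chr6:52171438-52171759, chr11:96155458-96156721 and chr15:102787768-102788139 (mm9) lie within Hoxa7, Hoxb6 and Hoxc11. The last, the only coding-strand locus of HoxC, ends at the annotated end of Hoxc11. The locus at chr6:52116517-52117330 lies within Gm28308, annotated as protein-coding, and the others within no Hox gene. Whether these loci are parts of messenger RNAs was not tested. In all, 6 spliced loci matched no annotated gene by length, and 4 of these were in HoxB. Placed in the same way, the locus at chr11:96109913-96110565 (mm9) covers the processed pseudogene Gm11539 on the same strand. That at chr11:96112442-96123897 lies within Gm53, which is on the other strand. Those of HoxA and HoxC overlap Hoxa9, Hoxa10, Hoxc5 and Hoxc9, also on the other strand. The remaining loci, both in HoxB, overlap no annotated gene of the cluster. A locus without a match by length can thus lie on an annotated gene. The largest by exon number, at chr11:96061805-96066699 (mm9), lay on the coding strand with 4 exons, 2097 nt and introns of 1294, 606 and 82 bp, the last in a U and an FT transcript. At chr11:96112442-96123897 (mm9) 3 BROAD transcripts on the opposite strand shared an intron of 10180 bp. The others were 2 exons long, with introns of 166 and 49 bp in HoxB, 1576 bp in HoxA and 304 bp in HoxC. Of the unspliced loci without a name, the longest were 1264 nt at chr11:96155458-96156721 in HoxB, 887 nt at chr6:52229509-52230395 in HoxA, 1172 nt at chr15:102806701-102807872 in HoxC and 977 nt at chr2:74528698-74529674 in HoxD (mm9). The HoxB locus falls outside the naming rule and was added after its values were seen. Next in HoxC came a locus of 560 nt in a U and an FT transcript, and in HoxD loci of 498 and 488 nt.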

How the data were processed

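The authors deposited 1 list of transcripts in BED format for the whole series, with transcript positions and no value for a single library. TopHat and mm9 are named per the submitters' processing notes, and TopHat's version, the way transcripts were assembled or pooled, and what the letters at the start of each name mean are not given in the sources used here. A score per transcript is in the list as deposited by the authors and entered no result. Depth is unknown.

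Neighbouring blocks less than 30 bp apart were taken as 1 exon. Overlapping transcripts of the same strand formed a locus. Strands of the Hox genes, gene names and distances between annotated starts come from GENCODE M21 (GRCm38). No coordinate was converted between builds, except that coding-strand loci with 1 exon and unnamed spliced loci were placed by the position difference of their cluster. This step was added after the data were seen. Genes were named by lengths as described, among annotated genes within 20 kb of the clusters for single introns. Named in the text are the 6 genes listed for the set, every other matched gene and, per cluster, up to 3 unmatched loci with the most exons and the unmatched locus with the longest span. Shares were compared with a two-sided exact test of a 2 by 4 table, with Benjamini-Hochberg adjustment over 2 tests, and intervals are Clopper-Pearson 95%. Alternatives changed the windows, the joining of blocks, the building of loci, the name prefixes used, a minimum length of 200 nt and the naming rule. Procedures were tested on simulated data. Sequences are from GENCODE transcripts and RefSeq. No column of values per sample was left unused (0 such columns). Analyses used Python 3.11.15, NumPy 2.4.6 and SciPy 1.17.1. The members, lists and tests were chosen with earlier results of these data known. Results that need 1 withheld gene are not reported here.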

Additional observations from a re-analysis of the deposited data

How the results depend on the processing

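Of 90 values recomputed under other settings, 79 counted as unchanged. For this a share had to stay within the interval reported and a count within 1.5 times of the value reported. An adjusted p had only to stay at or above the threshold of 0.05. Both tests between clusters missed the threshold under every setting that was run. Their adjusted p ranged from 0.272 to 1 for the opposite-strand share and from 0.721 to 1 for the spliced share. Without U names 9, 8, 2 and 2 loci remained in HoxA, HoxB, HoxC and HoxD, the spliced share was 77.8% in HoxA, 62.5% in HoxB and 100% in HoxD, the opposite-strand share in HoxC was 100%, and 5 genes were named by runs of lengths (Evx1os, Hoxaas2, Hoxaas3, Hoxb5os and Hoxd3os1). A shared intron length named 16 genes, and adding lengths of unspliced transcripts, a setting chosen after the data were seen, named 18. The latter and the single-intron setting ask for less agreement by construction. No paired analysis was possible because there is 1 library per group and no value per library, so no replicate could be left out. With no read counts, a missing gene may be absent from the list for reasons the file does not show, such as depth or filtering.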
